A study of Homo sapiens with 12 samples.

Results

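Of the 60230 lines of a table of RNA counts from 22Rv1 cells, 36 were almost unread in normoxia with vehicle and clearly read in hypoxia with vehicle. They were selected on measured levels in CPM, the value divided by its column total in M (the SI prefix mega). A line was chosen by a mean below 0.5 CPM in normoxia with vehicle, a mean of at least 2 CPM in hypoxia with vehicle, and a mean below 16 CPM over all 12 libraries. The last limit removed no line, since 36 lines also met the first 2 limits alone. The rise of these lines with hypoxia in vehicle cells is therefore how they were found, and it is described here without a test. What the choice did not use is hypoxia against normoxia in zotatifin-treated cells, and that comparison was tested.

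22Rv1 is an established human prostate cancer cell line. It was grown in normoxia or in hypoxia at 1% oxygen, and each set was left on vehicle or given zotatifin at 10 nM for 24 hours, starting 24 hours after seeding. Each of the 4 groups had 3 libraries made from total RNA, with no genetic change named in the labels. For the vehicle cells the treatment tag says none, and the labels used here name no solvent. The labels call the libraries biological replicates, but no other label ties them to separate cultures, so the p-values measure the spread between these libraries, which may be technical.

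Cells short of oxygen stabilise the hypoxia-inducible factors, transcription factors whose alpha subunits are otherwise hydroxylated and degraded. The stabilised factors bind DNA with their partner ARNT and switch on genes for glycolysis, angiogenesis and pH control, some of which are close to silent at normal oxygen. Zotatifin inhibits eIF4A, the RNA helicase that unwinds the leaders of messenger RNAs for translation, so any effect it has on RNA levels is a step away from its direct action.

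No file here pairs a line with a gene, so no line below has a gene name, a position or a sequence, and a line may or may not be a gene. Lines are known by their place among the data lines of the table, counted from 1, and no name was taken from that order. The check of a labelled cell line against its defining markers, and any list of hypoxia genes, could therefore not be applied. The RNA was bulk RNA, so a low mean in all cells and a high level in few cells cannot be told apart.

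Near the limits, the members were close to lines that missed. Line 12156 and line 10593 lay just inside the normoxia limit, at 0.490 and 0.439 CPM with vehicle, and line 33438 and line 49515 lay just outside, at 0.513 and 0.517 CPM. For the hypoxia limit, line 45095 and line 6115 were just inside at 2.00 and 2.04 CPM, while line 8313 and line 52881 stood just outside at 1.99 and 1.97 CPM. At normoxia depth 1 count was worth 0.0607 to 0.0639 CPM with vehicle, so a few counts decided which of these lines belong.

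The members were scarce even where they were on. Their means in hypoxia with vehicle ran from 2.00 to 24.7 CPM with a median of 2.67 CPM, against 0 to 0.490 CPM in normoxia with vehicle (median 0.228 CPM). Summed over the 36 lines, the level was 6.66 to 9.19 CPM in the 3 normoxia vehicle libraries and 134 to 149 CPM in the 3 hypoxia vehicle libraries. With zotatifin the sum was 11.2 to 14.99 CPM in normoxia and 81.4 to 101 CPM in hypoxia. All 36 lines were above 0 in each of the 6 hypoxia libraries, while 15 lines were listed at 0 in some normoxia library.

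**Figure D1:**
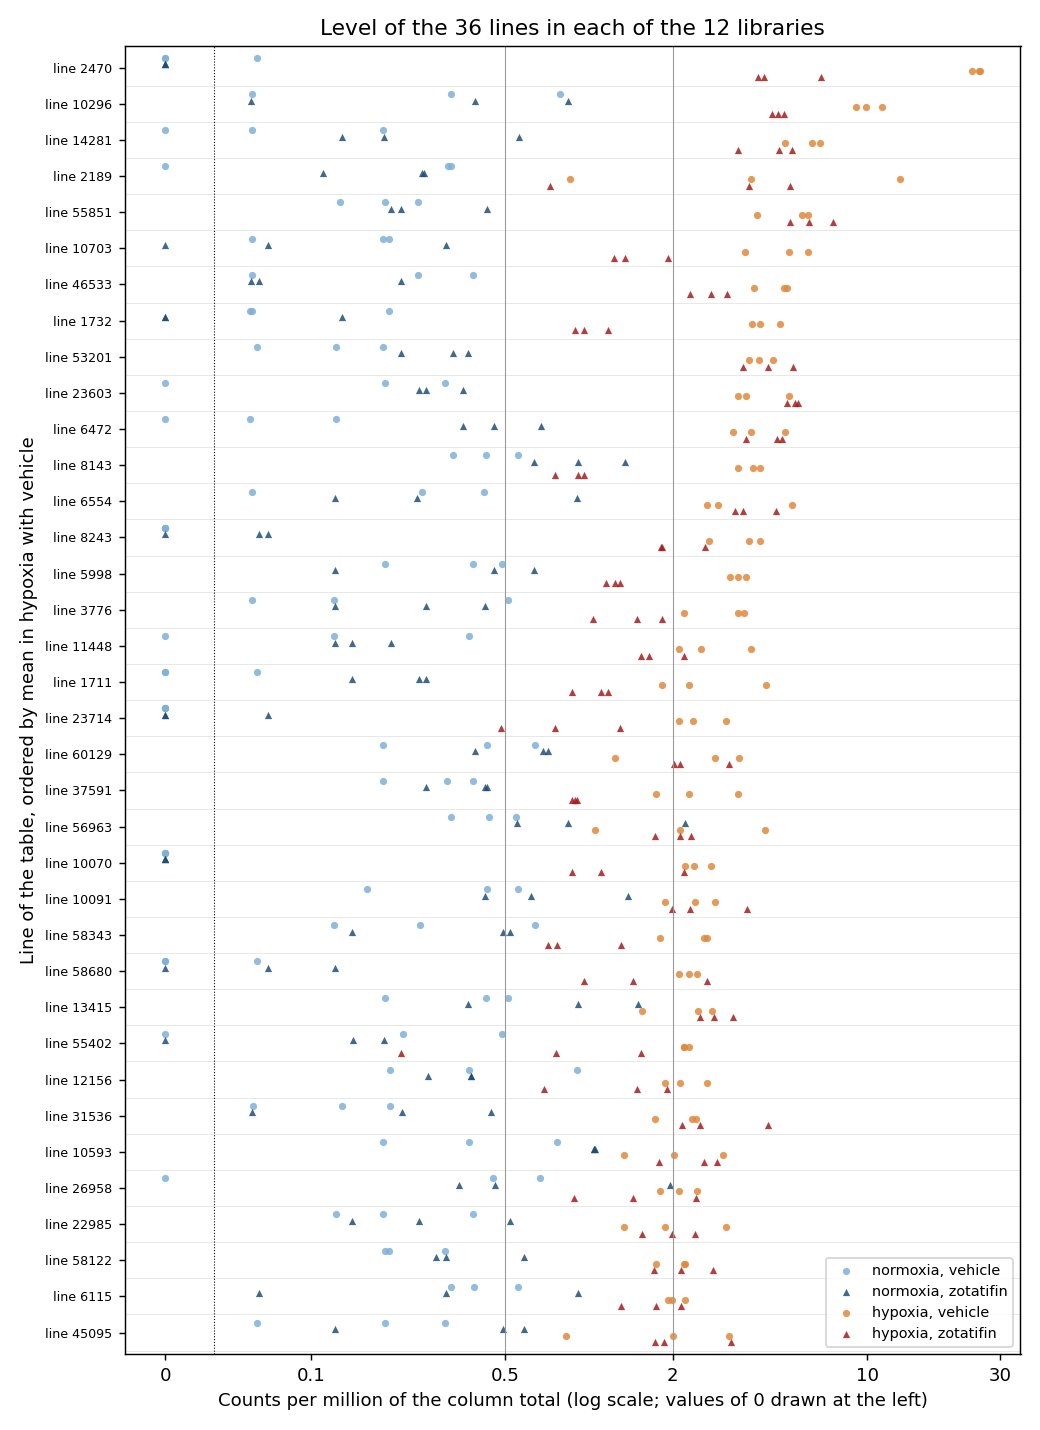
Level of the 36 lines in each of the 12 libraries, in CPM on a log scale, with values of 0 drawn at the left edge and vertical lines at 0.5 and 2 CPM. Each point is 1 library; circles are vehicle, triangles are zotatifin, blue is normoxia and orange or red is hypoxia. The red triangles of hypoxia with zotatifin lie right of the dark blue triangles of normoxia with zotatifin without overlap in 33 of the 36 lines, where 29.0% of all tested lines are so separated.

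Line 2470 was the most abundant of the set in hypoxia with vehicle, at 25.3, 23.8 and 25.1 CPM in replicates 1, 2 and 3. In normoxia with vehicle it had 1 count in replicate 2 and was listed at 0 in the other 2 libraries. With zotatifin it was listed at 0 in all 3 normoxia libraries and stood at 4.05, 6.80 and 4.23 CPM in hypoxia. It was thus off in both normoxia groups and on in both hypoxia groups, at a mean with the drug of 5.03 ± 1.54 CPM against 24.7 ± 0.83 CPM without (SD, n = 3).

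Line 10296 came next, at 11.3, 9.88 and 9.07 CPM in hypoxia with vehicle. Its normoxia vehicle libraries were uneven, at 0.0615, 0.320 and 0.789 CPM. With zotatifin it stood at 0.842, 0.0612 and 0.390 CPM in normoxia and at 4.53, 4.79 and 5.003 CPM in hypoxia, so the groups did not overlap in either drug arm.

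Line 14281 stood at 6.78, 6.31 and 5.06 CPM in hypoxia with vehicle and at 0.0615, 0 and 0.182 CPM in normoxia. With zotatifin it gave 0.562, 0.184 and 0.130 CPM in normoxia and 3.43, 5.37 and 4.81 CPM in hypoxia. Line 55851 had 4.004, 6.13 and 5.82 CPM in hypoxia with vehicle against 0.185, 0.128 and 0.243 CPM in normoxia. Its hypoxia zotatifin values of 5.28, 7.51 and 6.16 CPM made it the highest of the 36 lines in that group, with 0.211, 0.428 and 0.195 CPM in normoxia.

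Line 2189 was the most uneven line in hypoxia with vehicle. Its hypoxia vehicle values were 3.80, 0.855 and 13.1 CPM, so replicate 3 held 73.7% of the summed level, and its hypoxia zotatifin values were 0.725, 5.25 and 3.74 CPM. Normoxia was low in both arms, at 0.312, 0.318 and 0 CPM with vehicle and 4, 2 and 4 counts with zotatifin (mean 0.205 CPM). Its mean over replicates 1 and 2 was 2.33 CPM, still above the limit. Line 56963 and line 45095 followed, with 57.5% and 53.0% of the hypoxia vehicle level in replicate 1. Without that library their means were 1.58 and 1.41 CPM. In all, 7 of the 36 fell below 2 CPM without their highest hypoxia vehicle library, to between 1.41 and 1.97 CPM. The other 5 were line 22985, line 10593, line 26958, line 6115 and line 58122. Their highest library held 49.2%, 47.4%, 38.6%, 36.1% and 35.9% of the hypoxia vehicle level. Leaving out the highest library always lowers a mean, so a line near the limit can fall below it with even libraries.

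Zotatifin-treated cells answered whether the lines come on in hypoxia outside the libraries that chose them. Of the 36 lines, 31 were higher in hypoxia than in normoxia with zotatifin (edgeR quasi-likelihood test, adjusted p under 0.05 over all 17993 tested lines), and none was called lower. Over all tested lines 20.3% were called higher in this comparison, and among the 1207 other tested lines below 0.5 CPM in normoxia with vehicle 31.0% were. The median log2 fold change of the 36 was 2.91, against 0.01 over all tested lines and 0.81 over the other lines near silent in normoxia with vehicle. Every member entered the fit, since all 3 hypoxia vehicle libraries of each lay above the filter of 0.667 CPM, and 34 members had all 3 hypoxia zotatifin libraries there too. The 1207 other lines could not pass this filter on their normoxia vehicle libraries alone. Some may have entered through hypoxia with zotatifin, so their 31.0% and 0.81 are partly set by the filter and are no neutral base.

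Separation of the libraries showed the same thing without a model. In 33 of the 36 lines each hypoxia zotatifin library lay above each normoxia zotatifin library, where 29.0% of all tested lines did. The 3 exceptions were line 8143, line 56963 and line 26958. The mean was higher in hypoxia in 35 lines, and line 8143 was the exception. For this count the share of all tested lines was not computed.

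The full switch, as the rule drew it for vehicle cells, was met by fewer lines. With zotatifin 14 of the 36 had a normoxia mean below 0.5 CPM and a hypoxia mean of at least 2 CPM, where 0.0498% of all 60230 lines did. Another 5 reached 2 CPM in hypoxia but stood at 0.5 CPM or more in normoxia, and 15 were below 0.5 CPM in normoxia but under 2 CPM in hypoxia. The remaining 2 lines, line 8143 and line 26958, missed both levels. Counted the other way, 30 lines of the table met both levels in zotatifin cells, and the 14 members were 46.7% of these and 38.9% of the 36. Of the 16 that were no members, 11 were below 2 CPM in hypoxia with vehicle, 6 were at 0.5 CPM or more in normoxia with vehicle and 1 had a mean of 16 CPM or more, with some lines missing on more than one limit. These 16 had median levels of 0.406 CPM in normoxia and 1.77 CPM in hypoxia with vehicle, which do not show how near the limits each line lay.

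**Figure D2:**
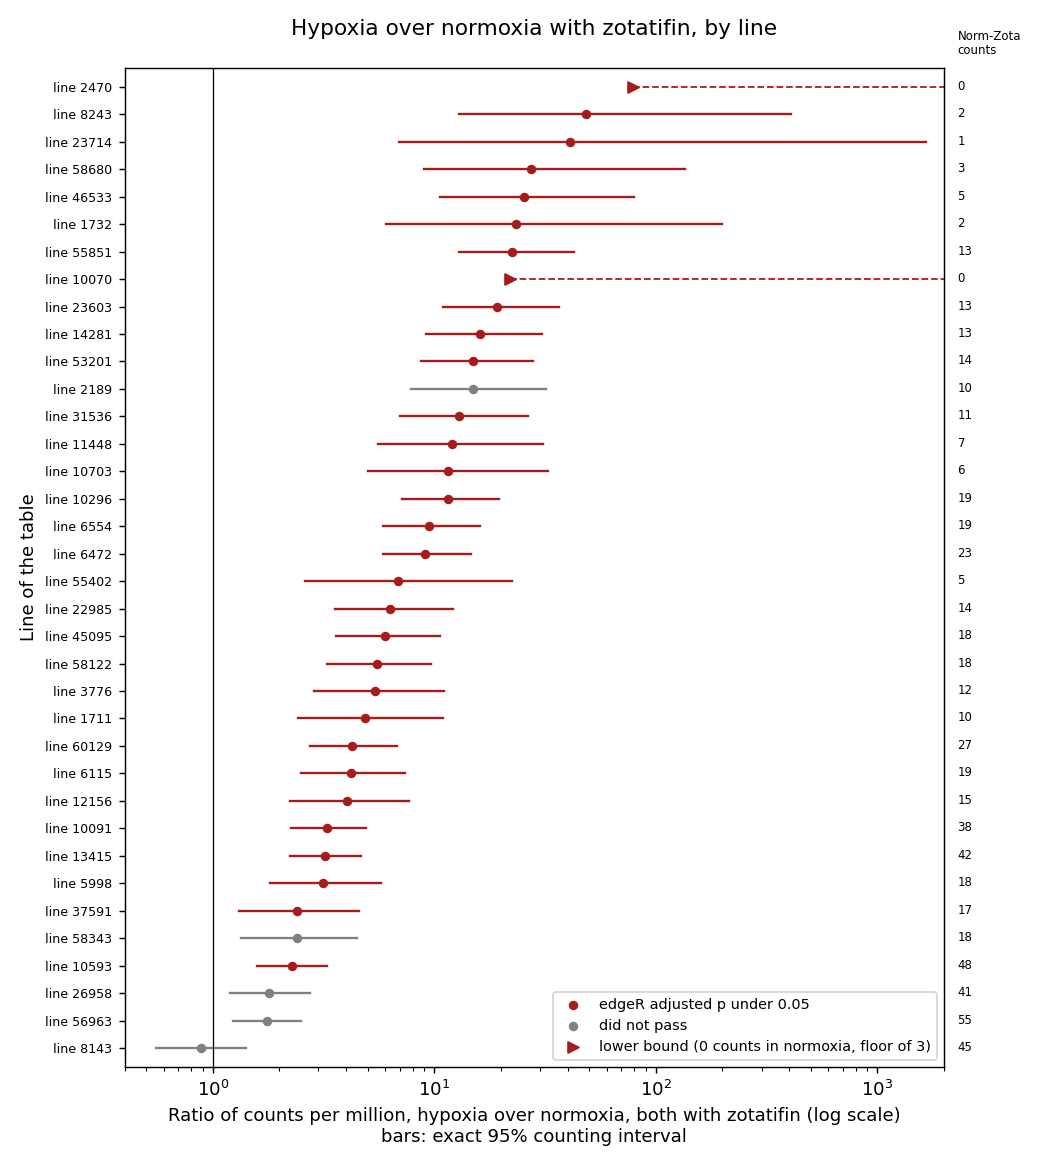
Ratio of hypoxia to normoxia in zotatifin cells for each of the 36 lines, on a log scale, with the exact 95% counting interval as a bar and the summed normoxia counts at the right. Red lines passed the edgeR test and grey lines did not; triangles are lower bounds for the 2 lines with 0 normoxia counts. The bars lengthen as the normoxia counts fall, and 35 of the 36 lines lie wholly right of a ratio of 1. The bars cover counting error only, and the share of all tested lines right of 1 was not computed.

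Among lines with enough normoxia counts to set a ratio, line 55851 gave the clearest rise with zotatifin. It had 257 counts in hypoxia and 13 in normoxia, a ratio per column total of 22.5, and the exact 95% counting interval ran from 12.9 to 42.8. The edgeR estimate on the log2 scale was 4.40 with an SE of 0.34 (adjusted p = 2.84e-12). Line 23603 had a ratio of 19.2 (interval 10.98 to 36.6), from 0.351, 0.245 and 0.260 CPM in normoxia to 5.15, 5.63 and 5.48 CPM in hypoxia (edgeR adjusted p = 7.99e-11). The hypoxia values of line 23603 varied by an SD of only 0.248 CPM around 5.42 CPM.

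Line 46533 rose from 0.211, 0.0612 and 0.0649 CPM to 3.12, 2.73 and 2.31 CPM, a ratio of 25.5 that rests on 5 normoxia counts (interval 10.6 to 80.0, edgeR adjusted p = 3.47e-09). Line 14281 had a ratio of 16.02 (interval 9.14 to 30.7) and line 53201 one of 14.95 (interval 8.69 to 27.9). Line 53201 stood at 0.211, 0.367 and 0.325 CPM in normoxia and 5.42, 4.40 and 3.56 CPM in hypoxia with zotatifin. All 3 passed the test, and their hypoxia libraries lay far above their normoxia libraries.

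Line 10296, line 6554 and line 6472 had more normoxia zotatifin counts and smaller ratios than the lines just described. Normoxia counts are the denominator of the ratio, and the order did not hold for all members. Line 55402 had 5 such counts and a ratio of 6.83. Line 10296 had a ratio of 11.5 (interval 7.16 to 19.5), although its 19 normoxia zotatifin counts fell 12, 1 and 6 to the libraries. Line 6554 went from 0.908, 0.123 and 0.240 CPM to 4.70, 3.57 and 3.36 CPM, a ratio of 9.46 (interval 5.86 to 16.1). Line 6472 went from 0.351, 0.673 and 0.454 CPM to 4.94, 4.72 and 3.66 CPM, a ratio of 9.05 (interval 5.85 to 14.6). Both rose at edgeR adjusted p-values of 1.33e-05 and 4.69e-09.

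Line 31536 gave 0.213, 0.0615 and 0.444 CPM in normoxia and 2.15, 4.38 and 2.51 CPM in hypoxia with zotatifin, a ratio of 12.9 (interval 6.98 to 26.6). Line 45095, the member nearest the hypoxia limit, gave 0.491, 0.122 and 0.585 CPM against 1.86, 3.24 and 1.73 CPM, a ratio of 6.01 (interval 3.60 to 10.6). Both passed the test, at edgeR adjusted p-values of 1.9e-07 and 0.000202. Line 13415 rose from a normoxia that was no longer near silent, at 0.913, 0.367 and 1.49 CPM, to 2.81, 3.30 and 2.50 CPM (ratio 3.20, interval 2.23 to 4.66).

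Of the lines at the limits, line 12156 stood at 0.377, 0.376 and 0.264 CPM in normoxia and 0.687, 1.49 and 1.91 CPM in hypoxia with zotatifin (ratio 4.02, interval 2.23 to 7.68). Line 6115 stood at 0.913, 0.306 and 0.0649 CPM against 1.304, 2.14 and 1.74 CPM (ratio 4.19, interval 2.50 to 7.37). Both rose, and the groups did not overlap in either. Line 10593 had nearly equal normoxia zotatifin libraries, at 1.05, 1.04 and 1.04 CPM, and rose to 1.78, 2.59 and 2.89 CPM (ratio 2.28, edgeR adjusted p = 0.0118). Without hypoxia zotatifin replicate 3 the call of line 10593 was lost (edgeR adjusted p = 0.0543, and 0.00317 to 0.0543 over 20 alternatives).

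Another 9 called lines, none of them with 0 to 3 normoxia zotatifin counts, had ratios from 3.16 (line 5998) to 12.03 (line 11448). Line 11448 stood at 0.140, 0.122 and 0.195 CPM in normoxia and 1.65, 2.20 and 1.54 CPM in hypoxia with zotatifin, and line 5998 at 0.632, 0.122 and 0.454 CPM against 1.24, 1.29 and 1.154 CPM. Line 60129 and line 10091 reached 2.44 and 2.66 CPM in hypoxia from 0.594 and 0.806 CPM, so they were raised without having been near silent in normoxia with the drug. Line 58122 and line 22985 had nearly equal hypoxia means in both arms, at 2.05 and 2.11 CPM with vehicle and 2.21 and 1.98 CPM with zotatifin.

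The call of line 55402 rested on few counts. It stood at 0, 0.184 and 0.142 CPM in normoxia and 0.762, 0.210 and 1.54 CPM in hypoxia with zotatifin, a ratio of 6.83 (interval 2.62 to 22.5, edgeR adjusted p = 0.0136). It was lost without hypoxia zotatifin replicate 3 (edgeR adjusted p = 0.0894) and without normoxia zotatifin replicate 1 (edgeR adjusted p = 0.0524), with a range from 0.000629 to 0.0894 over 19 alternatives.

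The 5 lines that were not called did not all look alike. Line 8143 stood at 3.43, 3.88 and 4.10 CPM in hypoxia with vehicle, above all 3 normoxia vehicle libraries at 0.554, 0.324 and 0.425 CPM. With zotatifin it stood at 0.632, 1.35 and 0.909 CPM in normoxia and at 0.754, 0.911 and 0.962 CPM in hypoxia, so the groups overlapped. The ratio was 0.885 (interval 0.552 to 1.41), and edgeR put the log2 change at -0.20 with an SE of 0.38 (adjusted p = 0.712). For comparison, the lower bound of its vehicle ratio, on which it was chosen, was 5.45. Without normoxia zotatifin replicate 2 the log2 fold change of line 8143 was 0.13.

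Line 2189 had a large ratio, 14.9 (interval 7.85 to 31.8), and all hypoxia zotatifin libraries above all normoxia ones. Its spread gave a log2 fold change of 3.80 with an SE of 1.36 (edgeR adjusted p = 0.0524), so the counting interval alone understates its error. The call was made with DESeq2, with a minimum count of 30, with the 6 zotatifin libraries alone, and without hypoxia vehicle replicate 2, hypoxia vehicle replicate 3 or hypoxia zotatifin replicate 1, and over the 20 alternatives the adjusted p ran from 0.0045 to 0.152.

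Line 56963 stood at 0.842, 0.551 and 2.20 CPM in normoxia and at 2.13, 2.33 and 1.73 CPM in hypoxia with zotatifin (edgeR adjusted p = 0.188). Line 26958 stood at 1.95, 0.339 and 0.461 CPM against 0.884, 2.42 and 1.44 CPM (edgeR adjusted p = 0.419). In each, 1 normoxia library lay inside the hypoxia range. Without that library both were called, line 56963 without replicate 3 at a log2 fold change of 1.52 (edgeR adjusted p = 0.0114) and line 26958 without replicate 1 at 1.89 (edgeR adjusted p = 0.0199). Over the 20 alternatives the adjusted p ran from 0.0114 to 0.522 and from 0.0199 to 0.810.

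Line 58343 had 0.140, 0.490 and 0.519 CPM in normoxia and 1.304, 0.712 and 0.770 CPM in hypoxia with zotatifin, with no overlap (edgeR log2 change 1.21 with an SE of 0.52, adjusted p = 0.0588). Line 37591 gave 0.421, 0.428 and 0.260 CPM against 0.892, 0.906 and 0.866 CPM, nearly the same change, and was called (edgeR log2 change 1.21 with an SE of 0.47, adjusted p = 0.0365). These lines lay on either side of the threshold by little. Leaving out any of the 6 zotatifin libraries ended the call of line 37591, as did DESeq2 and the fit with no filter. Over 19 alternatives its log2 fold change ran from 0.99 to 1.33 and its adjusted p from 0.0296 to 0.136. Line 58343 was called with upper quartile factors, with the 6 zotatifin libraries alone and without normoxia vehicle replicate 2, with adjusted p-values from 0.0426 to 0.282 over its 19 alternatives.

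Counts near 0 set how well each ratio is known. With zotatifin, 2 lines had 0 normoxia counts over the 3 libraries, 4 had 1 to 3, another 4 had 4 to 9, and 26 had 10 or more, up to 55. With vehicle the numbers were 3, 4, 9 and 20 lines, up to 24 counts. In zotatifin cells the upper bound of the interval was 2.03 to 4.51 times the lower bound for lines with 10 or more normoxia counts. It was 5.57 to 8.59 times for 4 to 9 counts and 15.1 to 241 times for 1 to 3 counts. These intervals cover counting error only, on sums over 3 libraries, and not the spread between libraries.

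**Figure D3:**
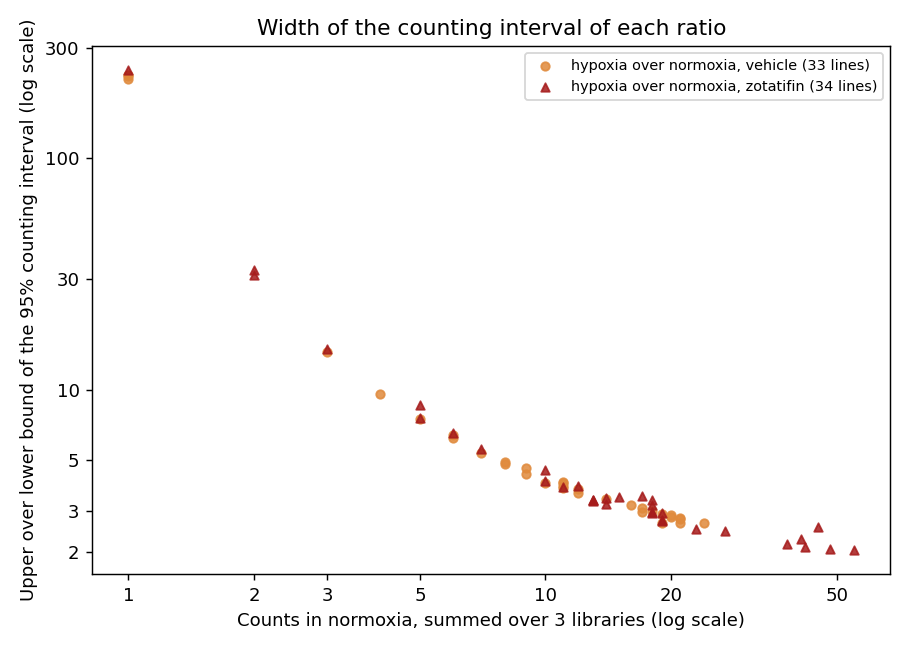
Width of the exact 95% counting interval, as the upper over the lower bound, against the normoxia counts summed over 3 libraries, both on log scales. Each point is 1 line in the vehicle arm (33 lines) or the zotatifin arm (34 lines) with at least 1 normoxia count. The width falls from as much as 241 at 1 count to between 2.03 and 4.51 at 10 counts or more in the zotatifin arm.

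For the 2 lines at 0 in normoxia with zotatifin the ratio has no upper end and was set against a floor of 3 counts over the 3 libraries, which is 0.0652 CPM. The lower end of the exact 95% counting interval, a stricter limit, is given beside it. Line 2470, with 208 counts in hypoxia, was at least 78.9-fold higher against the floor (exact interval from 63.6 upward). Line 10070, with 58 counts, was at least 22.0-fold higher against the floor (exact interval from 17.3 upward), from hypoxia values of 2.20, 1.10 and 0.866 CPM, and it was the 1 member listed at 0 in all 6 normoxia libraries. The fitted log2 fold changes of 9.13 and 7.28 depend on the prior count and are no bounds (edgeR adjusted p = 9.69e-14 and 4.25e-07). Line 10070 and the next 3 lines were picked for their low counts after the values were seen.

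Line 8243 had 1, 0 and 1 normoxia counts with zotatifin and 38, 28 and 19 in hypoxia, a ratio of 48.4 with an interval from 13.0 to 406. Line 23714 had 1 normoxia count and hypoxia values of 0.755, 1.29 and 0.481 CPM, a ratio of 41.0 with an interval from 6.90 to 1662. Line 58680 had 3 normoxia counts and 72 in hypoxia, a ratio of 27.3 (interval 8.98 to 136). Line 1732 had 2 normoxia counts and 41 in hypoxia, a ratio of 23.3 (interval 6.06 to 199). All 4 were called higher, but the intervals overlap so widely that their order is not known.

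Reading the lower ends of the exact intervals rather than the ratios changed which lines led. The lower end lay above 1 in 35 lines, above 2 in 29, above 4 in 18 and above 10 in 6. The 6 were line 2470, line 10070, line 8243, line 55851, line 23603 and line 46533, of which 3 had 5 or more normoxia counts. The shares of all tested lines beyond these limits were not computed, so the counts describe the members only. Among the lines with a normoxia zotatifin count, line 23714 had the second highest ratio. Its lower bound of 6.90 was below that of line 10296 with its ratio of 11.5.

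In vehicle cells the same limits held, on ratios that the choice itself made large. Line 2470 had a ratio of 1198 from 833 counts against 1, with an interval from 214 to 47367. Line 1711 and line 58680, also with 1 normoxia count, had ratios of 139 (interval 24.4 to 5565) and 111 (interval 19.3 to 4429). Line 8243, line 23714 and line 10070, listed at 0 in normoxia with vehicle, were at least 56.1-fold, 40.7-fold and 39.3-fold higher in hypoxia against a floor of 3 counts (exact intervals from 44.9, 32.4 and 31.3 upward). Over the 33 lines with a normoxia vehicle count the median ratio was 13.6, and over the 34 with a normoxia zotatifin count it was 6.58. With the lines at 0 set to their bound these medians were 15.997 and 7.94. A line chosen for a low normoxia and a high hypoxia level with vehicle is expected to give a smaller ratio elsewhere, so the gap between the arms was not tested.

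How high the lines stood in hypoxia differed between the arms and among the lines. With zotatifin the hypoxia means ran from 0.837 to 6.32 CPM (median 2.07 CPM), and 19 lines were at 2 CPM or more, 12 from 1 to 2 CPM and 5 below 1 CPM. The mean was lower than with vehicle in 25 lines and higher in 11, and the median ratio of zotatifin to vehicle means was 0.688, against 0.991 over all tested lines. Since the lines had to be high in the vehicle libraries, a ratio below 1 is partly built in, and no test was made.

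**Figure D4:**
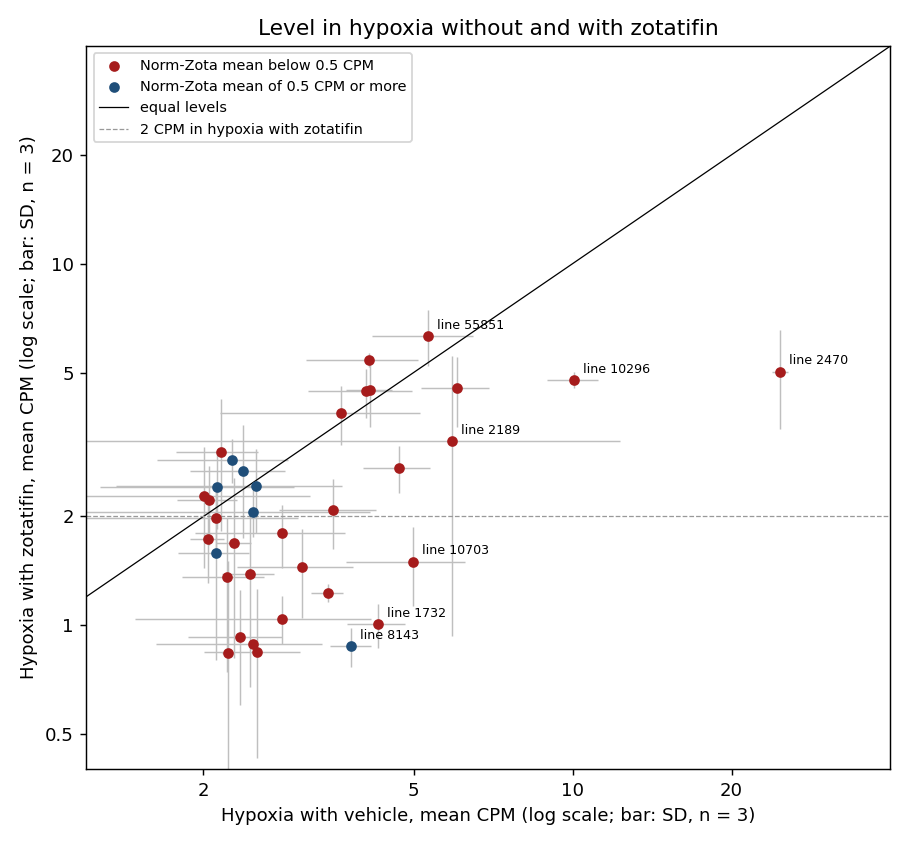
Mean level of each line in hypoxia with zotatifin against hypoxia with vehicle, in CPM on log scales, with the SD over 3 libraries as bars; the solid line marks equal levels and the dashed line 2 CPM with zotatifin. Blue points are the 7 lines at 0.5 CPM or more in normoxia with zotatifin. Lines 2470, 8143, 1732 and 10703 lie farthest below the line of equal levels, at ratios of means from 0.203 to 0.30.

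The lines lowest with the drug relative to vehicle were line 2470, line 8143, line 1732 and line 10703. Line 1732 had 3.84, 4.12 and 4.87 CPM in hypoxia with vehicle and 0.892, 1.17 and 0.962 CPM with zotatifin. Line 10703 had 5.23, 6.13 and 3.63 CPM against 1.92, 1.23 and 1.35 CPM. In all 4 the hypoxia zotatifin libraries lay below the hypoxia vehicle libraries. The 4 were picked as the lowest by the ratio of these groups, so this separation is largely built in. Its share over all tested lines was not computed. Line 1732 and line 10703 were still higher than in normoxia with zotatifin, which gave 0, 0 and 0.130 CPM and 0.0702, 0.306 and 0 CPM (edgeR adjusted p = 5.93e-06 and 7.77e-06).

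At the other end, line 31536, line 13415, line 23603 and line 55851 had higher hypoxia means with zotatifin than with vehicle. Line 31536 went from 2.42, 2.34 and 1.72 CPM to 2.15, 4.38 and 2.51 CPM, and line 13415 from 1.55, 2.47 and 2.77 CPM to 2.81, 3.30 and 2.50 CPM, with overlap in both. Line 23603 went from 5.24, 3.66 and 3.44 CPM to 5.15, 5.63 and 5.48 CPM, also with overlap. The libraries of line 55851 overlapped too, at 4.004, 6.13 and 5.82 CPM with vehicle against 5.28, 7.51 and 6.16 CPM with zotatifin. The 36 lines therefore included some whose hypoxia level with zotatifin was 0.203 of that with vehicle and some at 1.40 times it.

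In normoxia the lines mostly stayed low with the drug. Of the 36, 29 had a normoxia zotatifin mean below 0.5 CPM and 7 had 0.5 CPM or more, up to 1.199 ± 0.88 CPM in line 56963 (SD, n = 3). The 4 highest were line 56963, line 10593 at 1.04 CPM, line 8143 at 0.962 CPM and line 13415 at 0.924 CPM. The mean was higher than in normoxia with vehicle in 27 lines and lower in 8. A line chosen for a low normoxia vehicle mean is expected to be higher in another group, so this was not tested. Of the 5 lines not called in zotatifin cells, 3 were among these 7 (line 8143, line 56963 and line 26958).

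Some of the lines may share reads with others. An estimated count can be not whole where reads are divided between similar transcripts, but the labels do not say what made these values so. In 12 of the 36 lines (33.3%) all 12 values were whole to within 0.0005, against 20.2% of all tested lines, and in 14 lines some value was off by more than 0.05. In these 14, such as line 2189, line 31536, line 6554 and line 26958, the count may depend on how the authors' method divided reads. The share of all tested lines with such a value was not computed. Values of 0 count as whole, and 15 of the 36 lines had one, so the 33.3% and 20.2% may not be directly comparable.

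Other measures of the libraries moved with oxygen too. The column totals were 15.6 to 16.5 M in normoxia with vehicle, 10.5 to 12.2 M in hypoxia with vehicle, 14.2 to 16.3 M in normoxia with zotatifin and 10.4 to 15.5 M in hypoxia with zotatifin. Hypoxia zotatifin libraries had 28571 to 31987 lines above 0 and normoxia zotatifin libraries 25025 to 25415. Lines that the filter left out took up 0.224% to 0.269% of the counts in the former and 0.121% to 0.128% in the latter. Tested lines below 1 CPM on average had a median log2 fold change of 0.39 in the same comparison. Some of these lines may have passed the filter through hypoxia with zotatifin, so this value may be partly set by the filter. The part of any gain of scarce lines in the rise of the 36 was not tested. Per the growth protocol in the labels, 1 set of seeded cells went into each oxygen condition, so any other difference between the sets and the oxygen itself cannot be told apart.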

How the data were processed

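The deposited table holds estimated counts made by the authors, 1 column per library. Per the submitters' processing notes, Salmon, DESeq, DESeq2 and the human build hg38 were used, with no version or role stated, and the annotation was not given there. All 12 columns matched a sample title. Levels are CPM on the column total (Python 3.11.15, scipy 1.17.1). For the test the estimated counts were rounded, filtered with filterByExpr (minimum count 10, minimum total 15) and scaled by TMM, the trimmed mean of M values. The fit was edgeR 4.0.16 (R 4.3.3), quasi-likelihood, robust, with 1 mean per group over 12 libraries, two-sided, Benjamini-Hochberg over all 17993 lines. Ratios use counts summed over a group, with exact Clopper-Pearson intervals at 95%. No pair of libraries in a group agreed within sampling noise (chi-square per degree of freedom 3.02 or more). The members, the measures and the rule for lines described singly (the extremes of each level and ratio, and the lines next to each limit) were chosen with earlier results of these data known. Line 55402, line 11448, line 5998, line 60129, line 10091, line 58122, line 22985 and line 1711 were described outside that rule. Alternatives were other scalings, filters, tools, limits and left-out libraries.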

Additional observations from a re-analysis of the deposited data

How the results depend on the processing

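The number of members called higher in hypoxia with zotatifin was 28 to 32 over the 20 alternatives of the fit, and 28 of the 31 calls were made in each alternative that tested the line; the others were line 10593, line 37591 and line 55402. It was 31 of 34 tested with the 6 zotatifin libraries alone, 31 with DESeq2 1.42.0 and 30 with limma-voom (limma 3.58.1). With limma-voom line 37591, line 55402 or both were not called. Line 55402 was lost without hypoxia zotatifin replicate 3 and without normoxia zotatifin replicate 1. The median log2 fold change of 2.91 was 3.43 with a minimum count of 30, which tested 31 members, and 2.80 to 3.12 with 1 library left out. Among single lines 1 changed sign, line 8143, at 0.13 without normoxia zotatifin replicate 2; with any 1 library left out it ran from -0.41 to 0.13. The limits set the size of the list: 23 lines with normoxia vehicle below 0.25 CPM, 131 below 1 CPM, 250 with hypoxia vehicle at 1 CPM or more and 11 at 4 CPM or more. In the last, 9 met both levels with zotatifin, not 14. The list had 33 lines on TMM-scaled totals and 35 to 48 with 1 library left out. Same-numbered zotatifin libraries did not deviate together (r from -0.02 to 0.00 over lines), which does not settle whether the numbers pair them. With a replicate block 31 members were called. Depth limits the ratios of the 10 lines with under 10 normoxia zotatifin counts.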
